A study of Homo sapiens with 22 samples.

Results

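The RGS genes measured in 6 B-cell lymphoma lines are RGS1, RGS2, RGS3, RGS10, RGS13, RGS14, RGS16 and RGS19. These 8 genes were read by 16 probe sets, among the 11963 genes and 22215 probe sets of the array that are not controls. RGS2, RGS13 and RGS19 had 1 probe set each, so no other probe set checks their values. The family was chosen on the treated minus untreated difference of RGS13, the largest mean decrease of all genes in this experiment, so the differences between treated and untreated cells are given below as a description. No p-value is given for the members in this contrast, and their calls are counted once, beside the share called among all genes, with nothing read from them. The treated cells received the DNA methyltransferase inhibitor 5-aza-2'-deoxycytidine (5-aza-dC) for 6 days, with the histone deacetylase inhibitor trichostatin A (TSA) at 625 nM during the last 24 h, and the untreated cells received neither. The titles of the samples give 5 µM 5-aza-dC and the protocol gives 3 µM, so the dose is open. Daudi, Namalwa and Raji come from Burkitt lymphoma. SU-DHL4, SU-DHL6 and HT come from the diffuse large B-cell type (DLBCL). Per line there were 2 treated and 2 untreated HG-U133A arrays, except for HT with 1 of each, which gave 11 treated and 11 untreated arrays. Each line stands for a single tumour. Nothing shows that the duplicates were separate cultures, and p-values over arrays therefore reflect only the spread between the samples measured, which can be technical. The treated arrays of the 3 Burkitt lines had been published earlier, and whether they were hybridised apart from the untreated arrays is not stated. In these lines a possible array batch and the treatment cannot be told apart. The mean differences of RGS13, RGS2 and RGS19 are therefore also given by lymphoma type. Means and tests over the 6 lines, those of the gene lists among them, include the Burkitt lines and carry this limit.

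RGS proteins (regulators of G-protein signalling) bind the GTP-loaded alpha subunit of a heterotrimeric G protein and speed up its GTP hydrolysis, which shortens the signal of a G-protein-coupled receptor. In B cells the receptors concerned include those for chemokines that place cells in the follicle. RGS13 and RGS1 are known from germinal centre B cells, where they dampen responses to chemokines. RGS1, RGS2, RGS3, RGS13 and RGS16 belong to 1 subfamily, RGS10 and RGS14 to another, and RGS19 to a separate one.

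RGS1, RGS13 and RGS2 follow each other on chromosome 1. In the RefSeq order of protein-coding genes (GRCh38.p14) they are preceded by RGS18 and RGS21, which had no usable probe set. The promoter windows of these 3 neighbours are shown because RGS13 and RGS2 lay at opposite ends of the family's response while RGS1, between RGS21 and RGS13, had no common direction. Each window holds 300 bases, 250 before and 50 after the RefSeq gene start, on the plus strand, at chr1:192635897-192636196 for RGS13, chr1:192575523-192575822 for RGS1 and chr1:192808789-192809088 for RGS2. CpG dinucleotides, the sites of DNA methylation, are in capitals.
RGS13: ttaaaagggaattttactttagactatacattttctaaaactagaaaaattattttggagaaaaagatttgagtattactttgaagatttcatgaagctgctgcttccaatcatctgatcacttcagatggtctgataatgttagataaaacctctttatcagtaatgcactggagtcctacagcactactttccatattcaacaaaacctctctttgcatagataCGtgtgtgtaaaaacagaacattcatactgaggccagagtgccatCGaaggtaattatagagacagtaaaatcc
RGS1: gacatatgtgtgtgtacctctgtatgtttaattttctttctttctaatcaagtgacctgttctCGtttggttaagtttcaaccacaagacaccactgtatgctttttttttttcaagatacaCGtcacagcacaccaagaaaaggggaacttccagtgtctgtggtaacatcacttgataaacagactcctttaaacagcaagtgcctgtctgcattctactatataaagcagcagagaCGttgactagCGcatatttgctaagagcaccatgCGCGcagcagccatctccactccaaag
RGS2: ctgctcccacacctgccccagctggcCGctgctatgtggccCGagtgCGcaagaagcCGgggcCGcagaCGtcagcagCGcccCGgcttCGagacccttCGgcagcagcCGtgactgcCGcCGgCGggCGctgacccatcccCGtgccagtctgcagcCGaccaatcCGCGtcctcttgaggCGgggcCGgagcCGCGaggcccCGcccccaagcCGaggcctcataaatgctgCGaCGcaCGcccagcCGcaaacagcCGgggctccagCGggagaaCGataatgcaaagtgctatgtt

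The RGS13 window held 2 CpG, at a GC content of 33.7%. The RGS1 window held 6 CpG (GC content 41.7%) and the RGS2 window 32 (69.7%). Over the 35116 RefSeq windows of this length the median was 14 CpG, with quartiles of 4 and 28, and 96.0% held at least 1. As few CpG as in RGS13, or fewer, were found in 18.2% of all windows, and as few as in RGS2, or fewer, in 82.8%. Of the other members, RGS16 had 26 CpG and RGS14 had 17. RGS19 has 2 windows, with 43 and 23, RGS10 has 2, with 33 and 5, and RGS3 has 5, with 1 to 33. A TATA box (TATAAA, on either strand) was present in the RGS1 window and in 1 RGS3 window, and in 11.5% of all windows. The motif TGACG, the core of a cyclic AMP response element, on either strand was present in the RGS1 and RGS2 windows and in 1 RGS3 window, and in 24.6% of all windows. The octamer ATGCAAAT was in no window of a member and in 1.77% of all. DNA methylation was not measured on these arrays.

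**Figure D1:**
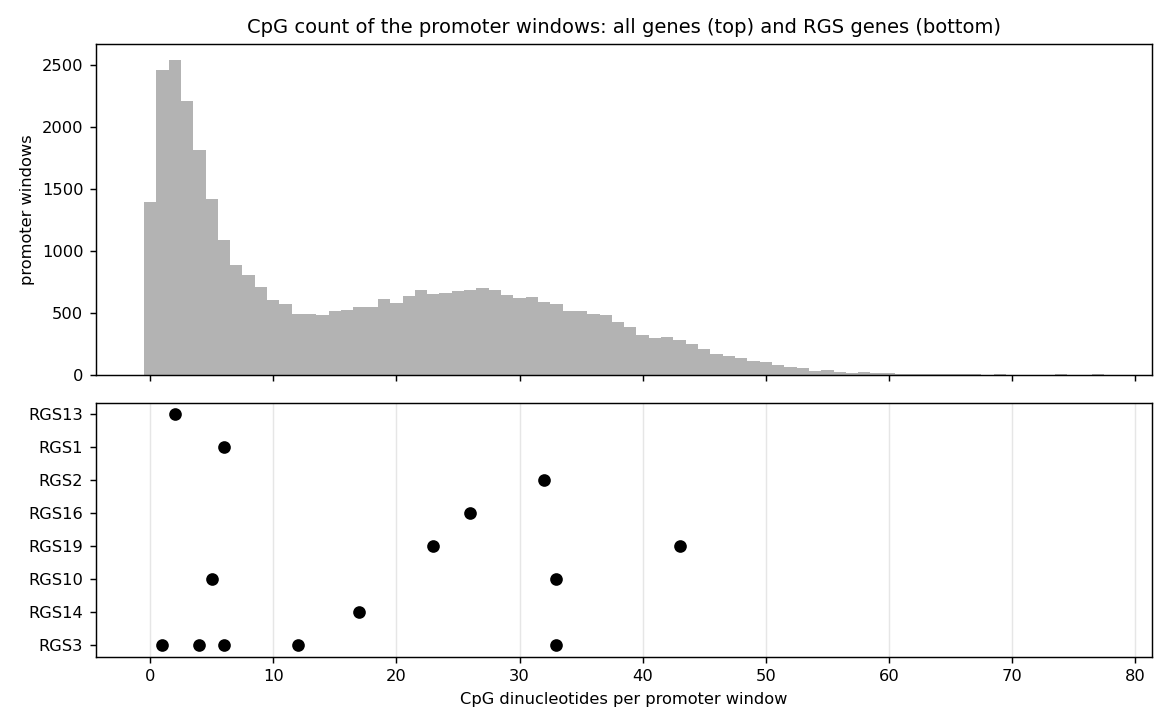
Number of CpG dinucleotides per 300-base promoter window (x axis) for all 35116 RefSeq windows, as a histogram of window counts (top), and for each window of the 8 RGS genes, as points (bottom). RGS13, with 2, lies in the CpG-poor mode, and RGS2, with 32, in the CpG-rich one.

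Array medians lay between 6.82 and 6.91 on treated arrays and between 6.72 and 6.79 on untreated arrays, on the log2 scale. A value at or below the 25th percentile of its own array, which was 5.55 to 5.88, is called dim here, since the files hold no detection flag. The interquartile range was 1.96 to 2.40 on treated arrays and 2.31 to 2.59 on untreated arrays. The treated SU-DHL4 arrays had a compressed range of values (interquartile range 2.03 and 1.96). In SU-DHL6 the treated replicate 2 had an interquartile range of 1.99. On it the ACTB control probe sets at the 3' end exceeded those at the 5' end by 2.08, a sign of shortened RNA. This ACTB value was higher on treated than on untreated arrays in each line but Raji. In SU-DHL4 it was 0.07 and 0.28 against -0.76 and -0.74, and in HT 0.01 against -0.41. The first treated SU-DHL6 array had 0.47, against -0.58 and -0.29 on the untreated ones. In Raji it was -0.47 and -0.57 against -0.75 and 0.07. Its part in the treated minus untreated differences was not tested. Of 6 B-cell markers, 5 had a usable probe set, and these 5 were dim on none of the 22 arrays. In bulk RNA, fewer cells of a kind and less RNA per cell cannot be told apart.

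RGS13, an RGS protein of germinal centre B cells that acts on chemokine receptor signals, was lower on the treated arrays in all 6 lines. In the Burkitt lines it read 4.28 and 4.21 in treated Daudi against 5.64 and 5.09 in untreated Daudi, 4.47 and 4.02 in treated Namalwa against 8.69 and 8.62 in untreated Namalwa, and 4.18 and 7.35 in treated Raji against 9.58 and 10.48 in untreated Raji. In the DLBCL lines it read 4.40 and 4.62 in treated SU-DHL4 against 10.26 and 10.32 in untreated SU-DHL4, 7.94 and 6.44 in treated SU-DHL6 against 10.22 and 10.57 in untreated SU-DHL6, and 5.09 in treated HT against 10.43 in untreated HT. Within each line the treated arrays lay below the untreated ones, but over all lines the groups overlapped, because untreated Daudi lay below treated SU-DHL6 and the second treated Raji array. The lower of the treated SU-DHL6 values came from the array with the shortened RNA. The transcript was dim on 8 of 11 treated arrays and on 1 of 11 untreated arrays, an array of Daudi, so the differences of lines with dim treated arrays are lower bounds of the decrease. In Daudi the untreated values, too, lay next to that limit or below it, so the size of its difference cannot be read.

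The differences of RGS13 per line were -1.12 in Daudi, -4.41 in Namalwa, -4.27 in Raji, -5.78 in SU-DHL4, -3.20 in SU-DHL6 and -5.33 in HT. Among the 11963 genes, ordered from the largest decrease, RGS13 stood at place 1 in Namalwa, Raji and SU-DHL4. It stood at place 2 in HT, at place 16 in SU-DHL6 and at place 670 in Daudi. In Raji the difference was -2.68 without the first treated array and -5.85 without the second. In SU-DHL6 it was -3.96 without the first treated array and -2.45 without the second. The places without these arrays were not computed. By the mean over the lines, -4.02 ± 1.68 (SD, n = 6 lines), the nearest genes were POU2AF1, the B-cell coactivator OBF-1, at -3.49 ± 0.64, and BLNK, a B-cell receptor adaptor, at -3.35 ± 0.89. The SD of RGS13 was the largest of these 3 and includes the value of Daudi, which is limited by the low untreated level there. RGS13 had its largest difference in SU-DHL4, whose treated arrays were compressed. Without SU-DHL4 and without treated replicate 2 of SU-DHL6 its mean difference was -3.51.

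**Figure D2:**
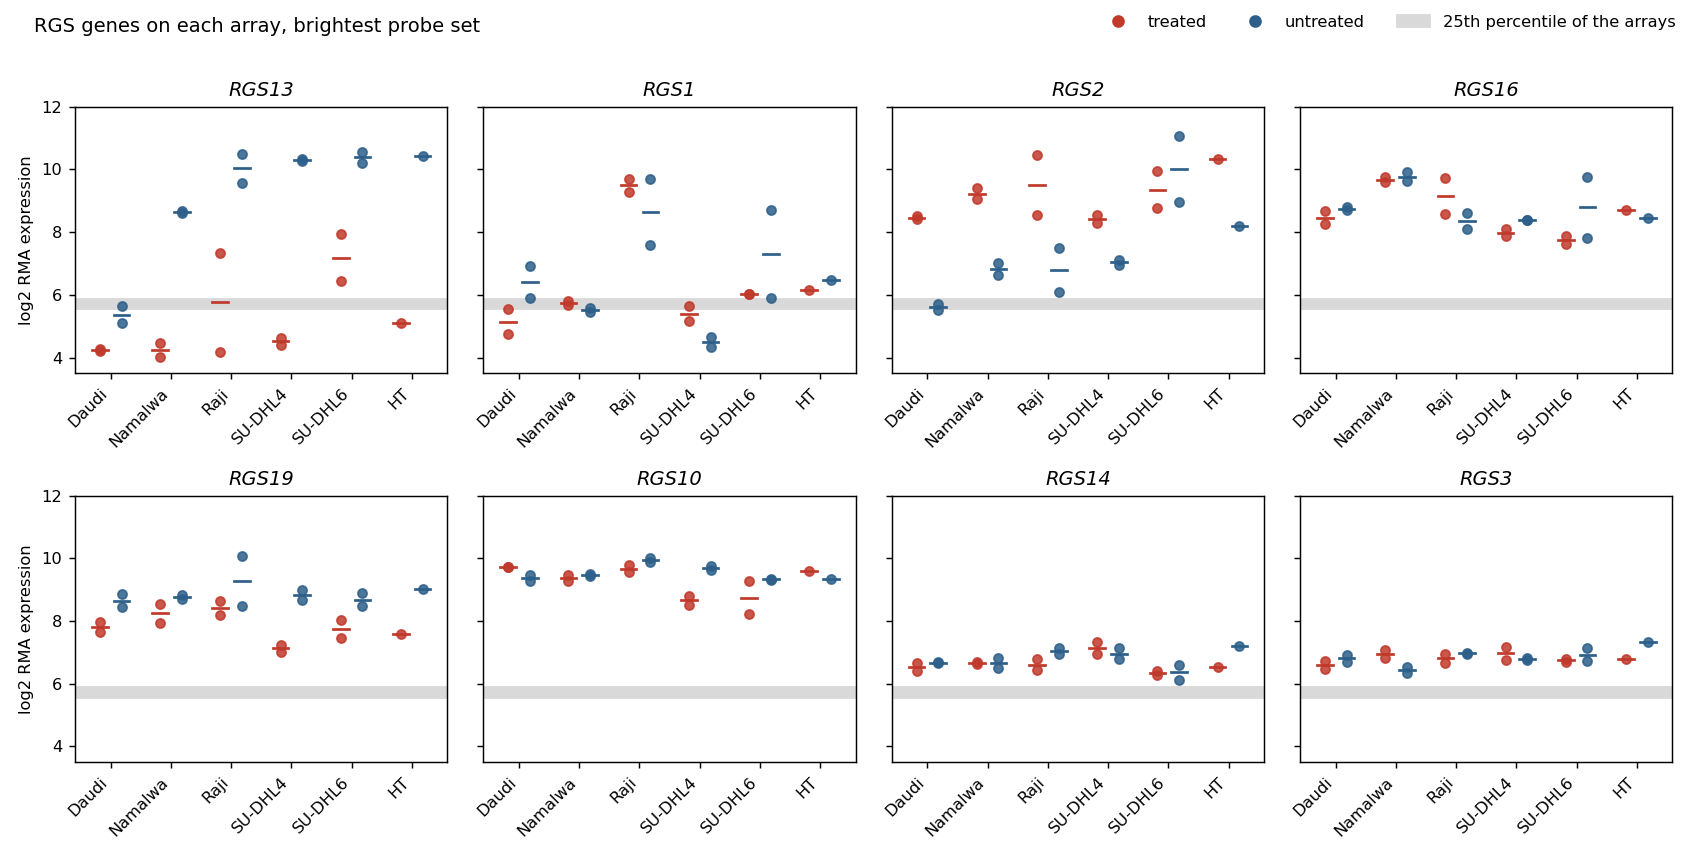
Log2 RMA expression (y axis) of the brightest probe set of each RGS gene on each array, by line (x axis), with treated arrays in red to the left of untreated arrays in blue. Short bars are means of the duplicates and the grey band spans the 25th percentile of the arrays. RGS13 fell into or below the band in 4 lines in both treated duplicates or the single array, and in Raji in 1 of 2, whereas RGS2 stayed above it on all treated arrays.

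RGS1, which dampens chemokine responses of activated and germinal centre B cells, had no common direction. It read 9.29 and 9.71 in treated Raji against 7.60 and 9.69 in untreated Raji, and 5.16 and 5.65 in treated SU-DHL4 against 4.34 and 4.64 in untreated SU-DHL4. In the opposite direction it read 4.76 and 5.54 in treated Daudi against 6.92 and 5.91 in untreated Daudi, and 6.01 and 6.03 in treated SU-DHL6 against 5.89 and 8.72 in untreated SU-DHL6. The difference was positive in 3 lines and negative in 3, from -1.28 in SU-DHL6 to 0.86 in Raji and 0.91 in SU-DHL4, with a mean of -0.15 ± 0.98 (SD, n = 6 lines). Single arrays set the direction in both lines with the widest duplicates: without the second untreated SU-DHL6 array the SU-DHL6 difference was 0.13 instead of -1.28, and without the first untreated Raji array the Raji difference was -0.19 instead of 0.86. This probe set, 216834_at, was dim on 4 treated and 4 untreated arrays, including all 4 of SU-DHL4, both treated arrays of Daudi and both untreated arrays of Namalwa, so the size of the SU-DHL4 difference cannot be read. Probe set 202988_s_at had the same sign in each line, from -1.0 in SU-DHL6 to 0.32 in Raji, but was dim on 9 treated and 9 untreated arrays. The third, 202989_at, read 3.83 to 4.07 and was dim on all 22.

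RGS2, an inhibitor with a preference for Gq alpha subunits, was higher on treated arrays in 5 of 6 lines. In the Burkitt lines it read 8.41 and 8.53 in treated Daudi against 5.51 and 5.71 in untreated Daudi, 9.05 and 9.40 in treated Namalwa against 6.64 and 7.02 in untreated Namalwa, and 10.47 and 8.56 in treated Raji against 6.08 and 7.50 in untreated Raji. In the DLBCL lines it read 8.54 and 8.29 in treated SU-DHL4 against 7.13 and 6.96 in untreated SU-DHL4, 9.94 and 8.77 in treated SU-DHL6 against 8.97 and 11.08 in untreated SU-DHL6, and 10.35 in treated HT against 8.19 in untreated HT. In every line but SU-DHL6 all treated values lay above all untreated ones. The line differences were 2.86, 2.40 and 2.73 in Daudi, Namalwa and Raji, 1.37 in SU-DHL4, -0.67 in SU-DHL6 and 2.16 in HT, with a mean of 1.81 ± 1.32 (SD, n = 6 lines). The negative value in SU-DHL6 rested on the second untreated array, without which it was 0.38. Untreated Daudi was dim on 1 array and 0.07 above that limit on the other, so the Daudi difference is a lower bound. The treated lines were more alike than the untreated ones, at 9.22 ± 0.72 in treated cells and 7.41 ± 1.52 in untreated cells (SD over 6 lines).

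RGS16, a close relative that acts on Gi and Gq subunits, averaged 8.62 ± 0.72 in treated and 8.75 ± 0.53 in untreated cells (SD, n = 6 lines). Its line differences ran from -1.04 in SU-DHL6 to 0.81 in Raji. Both ends rested on single arrays: the SU-DHL6 value was -0.06 without the second untreated array, and the Raji value 0.23 without the first treated array. The probe sets disagreed in the sign of the mean, at -0.13 ± 0.62 for 209325_s_at and 0.32 ± 0.59 for 209324_s_at, both within the spread of the lines. In both probe sets the lowest difference was that of SU-DHL6 and the highest that of Raji. RGS3, a regulator with several isoforms, read 6.48 to 7.17 (median 6.79) on treated arrays and 6.36 to 7.34 (median 6.81) on untreated arrays. Its differences, -0.07 ± 0.36 and 0.12 ± 0.26 for its 2 probe sets, were no larger than their SD over lines.

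RGS10, a small regulator of Gi signals, read 8.21 to 9.78 (median 9.48) on treated arrays and 9.28 to 10.00 (median 9.46) on untreated arrays. Its line differences were 0.36 in Daudi, -0.10 in Namalwa, -0.28 in Raji, -1.04 in SU-DHL4, -0.58 in SU-DHL6 and 0.25 in HT. The largest negative values thus came from the lines with the compressed treated arrays. Without SU-DHL4 and without treated replicate 2 of SU-DHL6 the mean difference was 0.04 instead of -0.23, and after quantile normalization of the table it was 0.10. The other probe sets of RGS10 gave means of 0.12 and 0.07. RGS14, which carries a second G-protein binding motif beside the RGS domain, read 6.28 to 7.34 (median 6.63) on treated arrays and 6.11 to 7.21 (median 6.78) on untreated arrays. Its 3 probe sets gave -0.18 ± 0.32, -0.40 ± 0.38 and -0.20 ± 0.13 (SD, n = 6 lines), negative in 4, 5 and 6 of the 6 lines.

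RGS19, a regulator of Gi-class subunits that was first found as a Gi-interacting protein, was lower on treated arrays in all 6 lines. It read 7.65 and 7.97 in treated Daudi against 8.85 and 8.44 in untreated Daudi, 8.54 and 7.95 in treated Namalwa against 8.83 and 8.70 in untreated Namalwa, and 8.18 and 8.65 in treated Raji against 8.49 and 10.08 in untreated Raji. In the DLBCL lines it read 7.24 and 7.01 in treated SU-DHL4 against 8.68 and 8.98 in untreated SU-DHL4, 7.46 and 8.02 in treated SU-DHL6 against 8.48 and 8.89 in untreated SU-DHL6, and 7.58 in treated HT against 9.01 in untreated HT. The duplicates overlapped in Raji alone. There the difference of -0.87 rested on the second untreated array, without which it was -0.07. The mean difference was -1.05 ± 0.43 (SD, n = 6 lines), from -1.70 in SU-DHL4 to -0.52 in Namalwa, so RGS19 varied less between lines than RGS13 or RGS2. The largest decrease thus came from a line with compressed treated arrays. Without SU-DHL4 and without treated replicate 2 of SU-DHL6 the mean difference of RGS19 was -0.98.

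Over all members, limma called 1 gene higher (RGS2) and 2 lower (RGS13 and RGS19) in treated cells and did not call 5, at an adjusted p threshold of 0.05 on the 6 line differences. In the same comparison 37% of all 11963 genes were called, 18.7% higher and 18.3% lower, and since this contrast chose the members nothing is read from their count. The call of each member was the same under either rescaling of the arrays (centring on the median, or quantile normalization). The groups of 11 arrays overlapped for all 8 members, whereas 4.24% of all genes were lower and 2.26% higher on every treated array than on any untreated one. Within the family the lowest difference was that of RGS13 in 5 lines and of RGS1 in Daudi. The highest was that of RGS2 in 5 lines and of RGS14, at -0.01, in SU-DHL6.

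**Figure D3:**
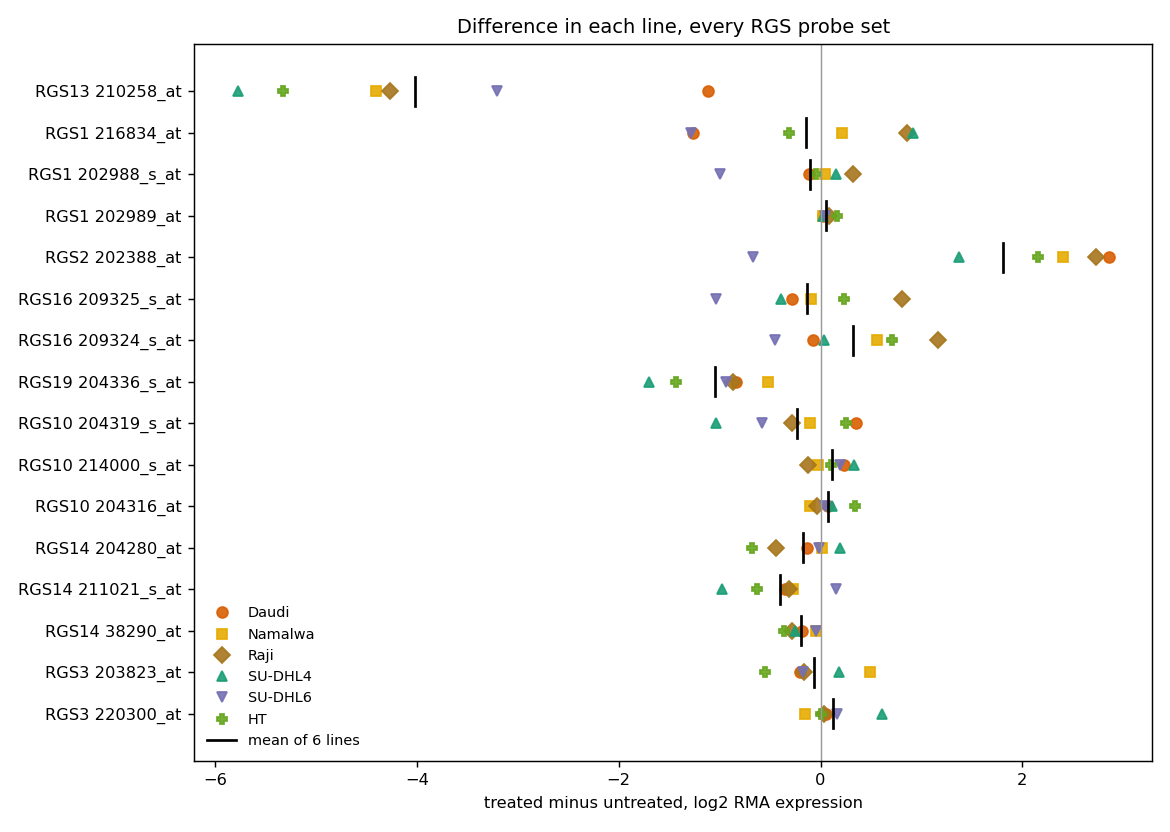
Treated minus untreated difference (x axis, log2) in each of the 6 lines, by marker, for all 16 probe sets of the 8 RGS genes (rows), with the mean over lines as a vertical bar. RGS13, RGS19 and the RGS14 probe set 38290_at lie below 0 in all lines and RGS2 above 0 in 5, while RGS1, RGS3, RGS10 and RGS16 have lines on both sides of 0 in their brightest probe sets.

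Whether the response depended on the line was tested over the 22 arrays with a moderated F test (limma), a measure apart from the mean that chose the family. For RGS13 the test gave F = 5.17 (adjusted p = 0.0403), where 20.4% of all genes passed, but it includes Daudi, in which the untreated level left little room for a decrease. Without Daudi it gave F = 1.57 (adjusted p = 0.417), so no difference in response is read from it. The call was lost under 20 of 33 alternatives, among them leaving out SU-DHL4 (adjusted p = 0.240) or Namalwa (0.0583), and quantile normalization (0.0502). RGS10 (adjusted p = 0.0663) and RGS2 (adjusted p = 0.0741) missed the threshold, and the other 5 members had adjusted p-values from 0.112 to 0.519. RGS10 passed without the second treated SU-DHL6 array (adjusted p = 0.00325) and also without the first (0.00111), and RGS2 passed without Raji (0.0230) or either of the treated Raji arrays (0.0471 and 0.0235), whose duplicates lay far apart.

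By lymphoma type, the difference of RGS13 averaged -3.26 ± 1.86 in Burkitt lines and -4.77 ± 1.38 in DLBCL lines (SD, n = 3 each), and these differed by 1.51 ± 1.05 (SE, limma adjusted p = 0.563). Without Daudi, whose difference cannot be read, the types differed by 0.43 (adjusted p = 0.848). RGS2 averaged 2.66 ± 0.24 in Burkitt lines and 0.95 ± 1.46 in DLBCL lines, a difference of 1.71 ± 0.68 (SE, adjusted p = 0.448), which was 0.90 without SU-DHL6. The Burkitt mean of RGS2 includes the lower bound of Daudi. RGS19 averaged -0.74 ± 0.19 in Burkitt lines and -1.36 ± 0.39 in DLBCL lines, a difference of 0.62 ± 0.24 (SE, adjusted p = 0.446). None of the 8 members passed this test, and the remaining adjusted p-values were 0.587 to 0.977. On simulated data it found 0 of 100 genes whose types differed by 1 and 42 of 100 that differed by 2. Equal responses of the types are therefore not shown. With 3 lines on each side limma called 1 gene of the 11963 (0.00836%), LGALS1, which is named after its value was seen, while 1315 had an unadjusted p under 0.05.

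The untreated level showed where the lines differed before treatment. RGS13 differed between the untreated lines (moderated F = 14.9, adjusted p = 0.000719), as did RGS2 (F = 10.2, adjusted p = 0.00343) and RGS1 (F = 7.61, adjusted p = 0.0107), and 20.5% of all genes passed. The other 5 members did not pass, with adjusted p-values from 0.0826 for RGS14 to 0.915 for RGS19. The RGS13 call was lost without Daudi (adjusted p = 0.502) and the RGS2 call without SU-DHL6 (0.0784). The RGS1 call was lost without SU-DHL4, whose arrays were dim for it (adjusted p = 0.113). It was made by the brightest probe set and was lost with either of the others (adjusted p = 0.245 with 202988_s_at).

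The untreated order of RGS13 was Daudi at 5.37, Namalwa at 8.65, Raji at 10.03, SU-DHL4 at 10.29, SU-DHL6 at 10.39 and HT at 10.43. The step from Daudi to Namalwa, 3.29, passed (limma adjusted p = 0.0148), and the later neighbours did not differ beyond their spread (adjusted p = 0.378 to 0.999). Daudi thus lay apart from the other lines before treatment, and 1 of its untreated arrays was dim. For RGS2 the order was Daudi at 5.61, Raji at 6.79, Namalwa at 6.83, SU-DHL4 at 7.04, HT at 8.19 and SU-DHL6 at 10.03, and no neighbours differed beyond their spread (adjusted p = 0.271 or more). For RGS1 it ran from SU-DHL4 at 4.49, Namalwa at 5.52, Daudi at 6.41, HT at 6.46 and SU-DHL6 at 7.30 to Raji at 8.64, again with no neighbours past the threshold (adjusted p = 0.420 or more). Among the other members no neighbouring lines passed either.

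Untreated Burkitt lines averaged 8.02 ± 2.40 for RGS13 and untreated DLBCL lines 10.37 ± 0.07 (SD, n = 3 each), a difference of -2.35 ± 1.17 (SE, adjusted p = 0.991), which was -1.03 without Daudi. For RGS2 the untreated means were 6.41 ± 0.69 in Burkitt lines and 8.42 ± 1.5 in DLBCL lines, a difference of -2.01 ± 0.81 (SE, adjusted p = 0.903), which was -1.21 without SU-DHL6. No member passed. In this comparison limma called 1 gene of the 11963 (0.00836%), PLAC8, named after its value was seen, and 649 had an unadjusted p under 0.05.

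Duplicates of a line differed far more for some RGS genes than for most genes. In untreated SU-DHL6 the second array exceeded the first by 2.83 for RGS1, 2.11 for RGS2 and 1.96 for RGS16, but by only 0.35 for RGS13 and 0.41 for RGS19, and 1.40% of all genes exceeded it by more than 1. In untreated Raji the second array exceeded the first by 2.09 for RGS1, 1.59 for RGS19, 1.42 for RGS2, 0.90 for RGS13 and 0.50 for RGS16, where 1.44% of all genes exceeded it by more than 1. Thus RGS1 and RGS2 were higher on the same untreated array in both lines. The RGS1 probe set 202988_s_at gave gaps of 2.23 in SU-DHL6 and 3.01 in Raji. The control probe sets also differed between these duplicates. In untreated Raji the 3' minus 5' value of ACTB was 0.07 on the second array and -0.75 on the first, and that of GAPDH 0.64 and -0.02. In untreated SU-DHL6 it was -0.29 on the second array and -0.58 on the first for ACTB, and 0.55 and 0.03 for GAPDH. The part of this sign of RNA quality in the RGS values was not tested.

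On treated arrays the pattern was another. The second treated Raji array exceeded the first by 3.16 for RGS13, lay 0.42 above it for RGS1, and differed from it by -1.91 for RGS2 and -1.14 for RGS16. Of all genes, 3.45% were above 1 and 2.57% below -1 in this pair. The second treated SU-DHL6 array, the one with shortened RNA, differed from the first by -1.51 for RGS13, -1.16 for RGS2 and -1.07 for RGS10, and 6.26% of all genes were below -1 there.

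A list of 22 early response genes, which cells switch on within minutes of stimulation, was added after these values had been seen, and 19 were measured. In untreated SU-DHL6 the second array exceeded the first by more than 1 for 4 of them (FOS 1.60, EGR1 1.88, IER2 1.11 and IER3 1.19), with a list median of 0.59 against 0.02 for all genes. In untreated Raji it did so for 3 (EGR1 1.07, DUSP1 1.33 and ATF3 1.85), with a list median of 0.33 against 0 for all genes, and JUNB was below -1. In treated Raji 7 were below -1 and 1 above 1, with a list median of -0.47. In treated Namalwa 2 were above 1 (FOS 1.37 and DUSP1 1.25), with a list median of 0.14 against -0.07 for all genes, while the second array differed from the first by -0.12 for RGS1 and 0.35 for RGS2. Their part in the RGS1 and RGS2 values was not tested. Without the second untreated Raji and SU-DHL6 arrays the mean difference was 2.10 for RGS2, 0.26 for RGS1 and 0.08 for RGS16. It was -0.88 for RGS19 and -3.91 for RGS13.

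**Figure D4:**
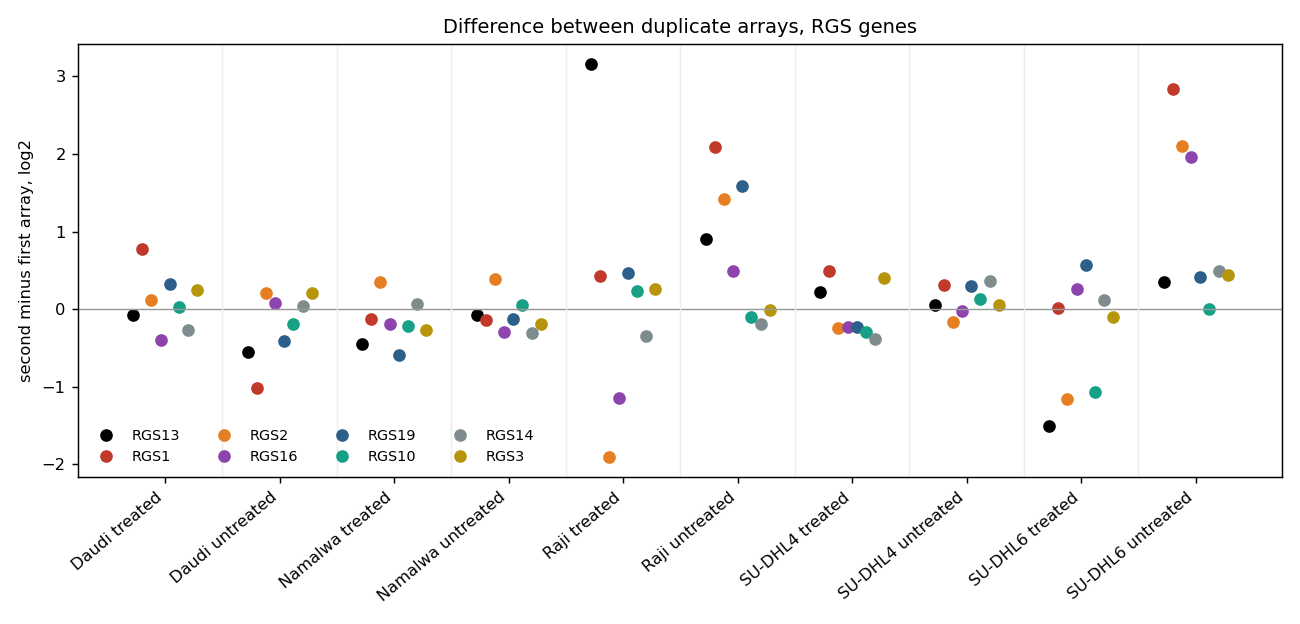
Second minus first array (y axis, log2) in each of the 10 groups with duplicates (x axis, treated left of untreated within a line) for the 8 RGS genes, by colour. The duplicates of Daudi, Namalwa and SU-DHL4 mostly lie near 0, and the gaps above 2 belong to RGS1 and RGS2 in untreated arrays and to RGS13 in treated Raji.

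The rest of the pathway was read from lists that leave out the 8 members, with limma on the 6 line differences (37% of all genes called, median difference of all genes 0.12). Of 15 other RGS genes 9 were measured, of which 2 rose, 0 fell and 7 were not called, with a median of 0.28. RGS4, a regulator best known from neurons, rose by 0.52 ± 0.35 (SD, n = 6 lines, adjusted p = 0.0205). RGS5, known from pericytes, rose by 0.37 ± 0.31 (adjusted p = 0.0479), a call that was lost when the arrays were centred (adjusted p = 0.113). RGS4 rose most in SU-DHL4 (1.07) and SU-DHL6 (0.82), the lines with compressed treated arrays. Of 6 further RGS-domain proteins 3 were measured, and AKAP10, an anchor for protein kinase A, fell by 0.36 ± 0.23 (SD, n = 6 lines, adjusted p = 0.0307) while the other 2 were not called. The 9 other RGS genes had differences from 0.07 to 0.52, of which none came near the size seen for RGS13 or RGS2.

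The alpha subunits are the substrates of RGS proteins. All 15 were measured, of which 4 rose, 2 fell and 9 were not called, with a median of 0.22. GNA13, which restrains germinal centre B cells downstream of their confinement receptors, averaged 7.01 ± 0.42 in treated and 8.62 ± 0.95 in untreated cells, and the difference was -1.61 ± 1.24 (SD, n = 6 lines, adjusted p = 0.0201). It was negative in 5 lines, as low as -3.04 in SU-DHL4, with its compressed treated arrays, and -2.87 in HT. In Raji it was 0.20. GNAS, the stimulatory subunit, fell by 0.57 ± 0.16 in all 6 lines (adjusted p = 0.00274), although its 9 probe sets ran from -0.75 to 0.13. GNAO1 rose by 0.43 ± 0.25 (adjusted p = 0.0187) and GNAI2, the main Gi subunit of lymphocytes, by 0.42 ± 0.38 (adjusted p = 0.0489). When the arrays were centred 1 alpha subunit rose and 2 fell, and GNAI2 was no longer called (adjusted p = 0.121). After quantile normalization 2 rose and 2 fell, and GNAI2 was called at 0.79 (adjusted p = 0.0135). Of 13 beta and gamma subunits measured of 16, 1 rose (GNG4 by 0.45 ± 0.24, adjusted p = 0.0143) and 3 fell, with a list median of -0.005. The 3 were GNB1 at -0.95 ± 0.52 (adjusted p = 0.00652), GNG5 at -0.87 ± 0.56 (adjusted p = 0.0120) and GNG10 at -0.63 ± 0.53 (adjusted p = 0.0325), each negative in all 6 lines.

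Of 24 receptors of B cells 21 were measured, of which 4 rose, 1 fell and 16 were not called, with a median of 0.10. CCR7, which guides lymphocytes to the T-cell zone, rose by 2.35 ± 1.16 in all 6 lines (SD, adjusted p = 0.00350). GPR18 fell by 2.31 ± 1.73 (adjusted p = 0.0170) in 5 of 6 lines and was dim on 10 of 11 treated and 2 of 11 untreated arrays. PTGER4, a prostaglandin E2 receptor, rose by 0.81 ± 0.73 (adjusted p = 0.0374), and LPAR6 by 0.37 ± 0.24 (adjusted p = 0.0310) although it was dim on all 22 arrays. With centred or with quantile-normalized arrays 1 receptor rose and 1 fell. CXCR4 and CXCR5, receptors whose signals RGS1 and RGS13 are known to dampen, are named here after their values were seen. They were not called, at -0.92 ± 0.98 (adjusted p = 0.0581) and -0.34 ± 0.51 (adjusted p = 0.164). Their other probe sets gave mean differences of -1.30 and -0.87 for CXCR4 and -0.91 for CXCR5.

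Of 12 receptor kinases, arrestins and G protein modulators 9 were measured, of which 3 rose, 1 fell and 5 were not called, with a median of 0.20. ARRB1, an arrestin, rose by 0.59 ± 0.25 (adjusted p = 0.00543), GRK4 by 0.36 ± 0.20 (adjusted p = 0.0238) and GRK5 by 0.28 ± 0.10 (adjusted p = 0.0281), each in all 6 lines. GPSM3, a modulator of Gi subunits, fell by 0.54 ± 0.39 (adjusted p = 0.0245), which was lost after quantile normalization (adjusted p = 0.265). When the arrays were centred 1 of the list rose and 1 fell, and neither GRK4 nor GRK5 was called (adjusted p = 0.0656 and 0.106). After quantile normalization 4 rose and 0 fell, with GRK5 called (adjusted p = 0.0149) and GRK4 not (0.0729). The other probe set of GRK4 averaged 0.05 and that of GRK5 0.18.

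All 19 effectors were measured, of which 5 rose, 2 fell and 12 were not called, with a median of 0.21. PLCB1, a phospholipase driven by Gq, rose by 0.50 ± 0.22 (adjusted p = 0.00824) and RAP1GAP by 0.43 ± 0.13 (adjusted p = 0.00634), both in all 6 lines. The other 2 probe sets of PLCB1 averaged -0.01 and 0.59, and the other of RAP1GAP 0.11. ADCY7, an adenylyl cyclase of blood cells, fell by 0.78 ± 0.65 (adjusted p = 0.0292) and was dim on 11 treated and 6 untreated arrays. PIK3CG, the lipid kinase activated by beta-gamma subunits, fell by 0.53 ± 0.41 (adjusted p = 0.0292). When the arrays were centred 2 effectors rose and 3 fell.

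Markers of B cells and of the germinal centre state were read beside RGS13. All 5 measured B-cell markers fell, among them CD79B at -3.16 ± 0.38, CD79A at -3.03 ± 1.11, PAX5 at -2.28 ± 0.81 and MS4A1 at -1.86 ± 1.2 (SD, n = 6 lines, adjusted p = 8.88e-05, 0.00111, 0.00106 and 0.0101). The other probe set of PAX5 averaged 0.18 and that of MS4A1 -1.71. Of 8 germinal centre markers 5 were measured and 3 fell, MYBL1 at -1.73 ± 1.0, MME at -1.49 ± 0.67 and BCL6 at -1.47 ± 0.87 (adjusted p = 0.00652, 0.00276 and 0.00751). The other 2, LMO2 at -0.13 ± 1.3 and S1PR2 at -0.01 ± 0.22, were not called, and each was higher in 4 of 6 lines. Among markers of other blood cells 3 of 6 T-cell genes rose (CD2 by 0.45 ± 0.40, CD3D by 0.41 ± 0.15 and CD3E by 0.40 ± 0.22, adjusted p = 0.0476, 0.00920 and 0.0194). Of the others, 1 of 6 myeloid genes rose (CSF1R by 1.17 ± 0.50, adjusted p = 0.00258) and 1 of 5 NK-cell genes (PRF1 by 0.43 ± 0.30, adjusted p = 0.0280). CD2 and PRF1 were no longer called with centred or with quantile-normalized arrays, which left 2 T-cell and 0 NK-cell genes. TRAT1, FCGR1A and KLRF1 were dim on all 22 arrays. The mean log2 level of the measured list on an array ran from 7.72 to 9.51 on treated and 10.36 to 10.86 on untreated arrays for B-cell markers, and from 6.55 to 7.28 on treated and 6.38 to 6.51 on untreated arrays for T-cell markers. For myeloid markers it ran from 5.55 to 6.04 on treated and 5.30 to 5.72 on untreated arrays, and for NK-cell markers from 5.84 to 6.34 on treated and 5.72 to 6.00 on untreated arrays. The part of these markers in the RGS values was not tested. Of all genes, those in the highest of 4 equal groups by untreated level had a median difference of -0.49, against 0.13 to 0.24 in the other 3, and RGS13, RGS10, RGS16 and RGS19 were in that group.

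The genes whose pattern over the 6 lines was most like that of RGS13 are given by Pearson's r as a description, over lines that share their arrays. By untreated line means, among the 614 genes with a range of at least 2, they were ANXA11 (r = 0.986), LYN (r = 0.976), EMP3 (r = 0.958), DDX3X (r = 0.957) and HK1 (r = 0.953). In all 5 the untreated level was lowest in Daudi, at 7.61, 7.97, 6.07, 6.13 and 7.15 in this order, as for RGS13. The likeness without Daudi was not computed. By line differences, among 936 genes, they were CDK2AP1 (r = 0.982), GMCL1 (r = 0.960), OXR1 (r = 0.949), VAMP1 (r = 0.947) and INTS8 (r = 0.941). Each of these had its highest difference in Daudi and its lowest in SU-DHL4, as RGS13 did, which includes the limited value of Daudi, but all 5 were positive in Daudi, and CDK2AP1 and INTS8 were below 0 in the other 5 lines.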

How the data were processed

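RNA of 6 lymphoma lines was measured on 22 HG-U133A arrays. Expression was deposited on a log2 scale, made by the authors with RMA, per the submitters' processing notes, which name R 2.10.1; a genome build is not given in the sources used here, and probe-level files were not used. The authors' deposited table of statistics was not used. Platform annotation gave 1 symbol for 19065 of 22215 probe sets, several for 1043 and none for 2107; the brightest probe set stood for each of 11963 genes. The 68 control probe sets were left out.

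Treated minus untreated differences of line means were tested over 6 lines with limma 3.58.1 in R 4.3.3 (Benjamini-Hochberg over all genes, threshold 0.05, two-sided). Burkitt and DLBCL lines were compared on 6 line values. Differences between lines used moderated F tests over 22 arrays (10 residual degrees of freedom), where HT, with single arrays, was assumed to vary like the others. The number of arrays limits the precision. The fits were tested on simulated data, and the outcome for the effect compared between lymphoma types is given above.

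The 8 members and the gene lists were chosen with earlier results of these data known. Named genes were all members, up to 4 called genes per list with the largest differences, and the 5 genes most like RGS13 in each measure; other names are uncalled or dim list members given to complete a count, or are marked as named after their values were seen. Promoter windows are RefSeq's (GRCh38.p14); all 8 members matched by symbol. Alternatives were scaling, probe set choice, a filter on dim probe sets, arrays as units, a replicate block, each lymphoma type alone and leaving out arrays or lines.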

Additional observations from a re-analysis of the deposited data

Results flagged for a closer look

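Of 24 groups of 6 line values tested (treated level, untreated level and difference of the 8 members), 3 held a line that lay apart from the others. Chance alone flags about 1 in 20 such groups. The untreated RGS13 level of Daudi was 5.37, against 8.65 to 10.43 in the other lines, a gap of 0.65 of the whole range. The treated RGS1 level of Raji was 9.50, against 5.15 to 6.15 in the other treated lines (gap 0.77 of the range), and untreated Raji also had the highest untreated RGS1 level, 8.64. The untreated RGS16 level of Namalwa was 9.78, against 8.35 to 8.79 in the other lines (gap 0.69 of the range).

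The test of whether the effect on RGS13 differed between the 6 lines gave a moderated F of 5.17 (limma adjusted p = 0.0403). It includes Daudi, whose untreated values lay at the dim limit, so that the size of its difference cannot be read. Without Daudi F was 1.57 (adjusted p = 0.417), so no difference in response between lines is read from the test. Over the alternatives its adjusted p ran from 0.000544 to 0.417, and the call was lost under 20 of 33.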

How the results depend on the processing

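Over 32 tested results on the members, 1088 alternative values were computed, of which 1041 kept their side of the threshold, 26 lost a call and 21 gained one. Of 304 alternative values of the untested treated minus untreated differences, 22 had the other sign. The mean difference stayed between -4.77 and -3.26 for RGS13, 0.95 and 2.66 for RGS2, and -1.36 and -0.74 for RGS19, and it crossed 0 for RGS1 (-0.38 to 0.26), RGS16 (-0.40 to 0.32), RGS10 (-0.45 to 0.12) and RGS3 (-0.18 to 0.12). RGS13 was dim on 7 treated arrays at the 10th percentile and 9 at the 40th, limits chosen after seeing the data, as was leaving out the second untreated Raji and SU-DHL6 arrays. Without those 2 arrays the RGS1 effect differed between lines (adjusted p = 0.0156) and so did the untreated RGS16 level (0.0111).

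Counts over all genes moved more. In place of 2238 higher and 2186 lower, there were 1265 and 2434 with centred arrays, 3473 and 3720 over all probe sets, 531 and 1004 in Burkitt lines alone and 469 and 986 in DLBCL lines alone; 4446 were higher with arrays as units. Leaving out 1 array or line gave 1224 to 2489 higher and 1657 to 2291 lower. For the Burkitt minus DLBCL effect, 1 gene was called, against 1484 with arrays as units, 0 to 19 leaving out 1 array or line, and 0 after quantile normalization, without dim probe sets, without SU-DHL4 and treated replicate 2 of SU-DHL6, or without the second untreated Raji and SU-DHL6 arrays. For untreated lines it was 1, against 2 over all probe sets, 122 with arrays as units and 0 to 5 leaving out 1 array or line. Effects differed between lines for 2440 genes, against 3974 over all probe sets, 579 without SU-DHL4 and treated replicate 2 of SU-DHL6, and 540 to 3882 leaving out 1 array or line. Untreated levels differed for 2449, against 3881 over all probe sets and 1713 to 2891 leaving out 1 array or line. The cause of these shifts was not tested, beyond the larger number of probe sets and the smaller number of lines or arrays.

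Same-numbered treated and untreated arrays shared only a number (correlations of their deviations -0.12 to 0.03 in 5 lines). With the replicate block, 3864 genes were higher, 187 differed in effect between lymphoma types and 1327 between lines, and RGS13 had an adjusted p of 0.0347 between lines. The block could not be used for untreated lines. Leaving out an HT array means leaving out HT.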
